A study of Mus musculus with 16 samples.

Results

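Long CDR3s of the TCRα chain are described here, defined as CDR3 nucleotide sequences of at least 48 bp, counted from the codon of the conserved V segment cysteine through the codon that closes the CDR3 in the J segment. They made up 6030 of the 83992 clonotypes in 16 libraries, a clonotype being one CDR3 nucleotide sequence of a library, and they are set against the 72124 clonotypes of 36 to 45 bp, the main range of lengths. The libraries of all CD8 cells held 5778 long clonotypes (5567 distinct sequences) of 78671, and those of sorted Vα3.2+ cells held 252 (227 distinct) of 5321. The remaining 5838 clonotypes were shorter than 36 bp. No length was outside the reading frame and no sequence held a stop codon.

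The mice were Themis+/+ or Themis-/- on the C57BL/6 background, and both genotypes carried the Foxp3-GFP allele. Themis is a T-lineage protein that tunes TCR signalling during thymic selection, and Themis-/- mice lack it. From each genotype, CD8 single-positive (SP) thymocytes and CD8 T cells of the lymph nodes (LN) were taken as all TCRαβ+ CD8 cells or as sorted Vα3.2+ CD8 cells, which gave 8 groups of 2 libraries. The series' design text assigns the libraries of a group to separate mice, whereas the methods describe lymph nodes of several mice pooled before sorting, so the p-values measure the spread between libraries. One label field of the sorted samples names another Vα than the others do, and the name Vα3.2 is used here. Ages were not given in the sources used here. Libraries of all CD8 cells held 57455 to 146191 reads and sorted libraries 10338 to 25247. No molecular identifiers were described, so intervals and limits cover counting error only, without the error of PCR. Transcripts of Themis are not measured by these tables, so the genotypes rest on the labels.

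The CDR3 is the loop of a T cell receptor chain that lies over the peptide in the MHC groove. In the α chain it is made by joining a V segment to a J segment without a D segment. Nucleases trim both ends, terminal transferase adds untemplated (N) bases, and opened hairpins can leave palindromic (P) bases, so the length of a CDR3 is the germline V and J bases that remain plus the N and P bases. Segments differ in how many bases they bring, and the α locus encloses the δ locus, whose V segments (TRDV) can also be joined to TRAJ segments. Joints that need no added bases are made again and again in separate cells, and such sequences are often found in more than one individual.

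The long sequences present in the most libraries are printed with that of 36 to 45 bp present in the most, because they show the 3 parts side by side. Sequences run 5′ to 3′, and capitals mark the added bases between the stretches matched to germline V and J. A stretch may hold single mismatches, which stay in lower case.
TRAV16 to TRAJ18, 48 bp, 5 libraries: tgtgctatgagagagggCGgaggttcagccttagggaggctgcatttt
TRAV12-3 to TRAJ32, 48 bp, 5 libraries: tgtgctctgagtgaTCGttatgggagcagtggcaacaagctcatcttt
TRAV12-3 to TRAJ32, 48 bp, 5 libraries: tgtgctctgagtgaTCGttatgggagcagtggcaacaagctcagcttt
TRAV14-1 to TRAJ22, 42 bp, 8 libraries: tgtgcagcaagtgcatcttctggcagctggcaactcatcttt
The 3 long sequences kept all of their germline V bases and added 2 or 3 bases. The 2 TRAV12-3 sequences differ by T44G, counted from 1 at the 5′ end, within the J part, where the first has the germline base and the other a mismatch, and the first of them also listed TRAV6-5 as an equal V call. The comparison sequence had 0 added and 0 trimmed bases, and its 233 to 657 reads placed it among the 8 most abundant clonotypes of every library of all CD8 cells. The TRAV16 to TRAJ18 sequence was read 7 times in Themis+/+ LN replicate 2, 73 times in Themis-/- LN replicate 1, 5 times in Themis+/+ thymus replicate 1, 26 times in Themis-/- thymus replicate 1 and 4 times in Themis-/- thymus replicate 2. Both genotypes and both tissues thus held it, and none of its 5 libraries had it above 0.109% of reads.

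The long sequence with the highest mean share of reads in each group is printed next, because the V and J pairs in these sequences differed between groups. A single library can hold a larger long clone that is not printed.
Themis+/+ LN, all CD8, TRAV10 to TRAJ53: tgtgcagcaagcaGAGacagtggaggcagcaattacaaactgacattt
Themis-/- LN, all CD8, TRAV8-2 to TRAJ4: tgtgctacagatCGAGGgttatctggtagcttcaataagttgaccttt
Themis+/+ thymus, all CD8, TRAV6-6 to TRAJ2: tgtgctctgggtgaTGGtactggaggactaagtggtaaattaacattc
Themis-/- thymus, all CD8, TRAV19 to TRAJ48: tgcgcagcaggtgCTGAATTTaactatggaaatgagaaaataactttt
Themis+/+ LN, Vα3.2+, TRAV9-3 to TRAJ45: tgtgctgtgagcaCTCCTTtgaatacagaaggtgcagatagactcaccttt
Themis-/- LN, Vα3.2+, TRAV9-4 to TRAJ2: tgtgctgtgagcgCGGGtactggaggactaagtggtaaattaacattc
Themis+/+ thymus, Vα3.2+, TRAV9-4 to TRAJ6: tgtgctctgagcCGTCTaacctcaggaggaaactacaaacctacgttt
Themis-/- thymus, Vα3.2+, TRAV9-3 to TRAJ24: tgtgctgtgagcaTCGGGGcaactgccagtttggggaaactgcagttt
In the same order they held 76, 354, 199, 198, 83, 211, 300 and 224 reads in the library where each was most abundant. Of the 8, only the Themis-/- LN sequence of all CD8 cells was found in a second library, with 354 reads in replicate 2 and 1 read in replicate 1. They carried 3 to 8 added bases. The TRAV6-6 to TRAJ2 sequence held 2 mismatches to germline V, C3T and A10G with the germline base first, and the other 7 held none. Their ranks ran from 3 of 5416 clonotypes, in Themis-/- LN replicate 2, to 62 of 5753, in Themis+/+ LN replicate 2, in the unsorted libraries. In the sorted thymic libraries of replicate 1 the leading long clones took 2.57% of Themis+/+ reads and 2.17% of Themis-/- reads, and these libraries held only 84 and 86 clonotypes in all.

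Long CDR3s fell off steeply with length. Among all CD8 clonotypes 4519 had 48 bp, 1069 had 51 bp, 147 had 54 bp, 17 had 57 bp and 26 had 60 bp or more, up to 120 bp. The 45 bp class just below the limit held 11799 clonotypes, and it differed from the 48 bp class by fewer germline bases as well as fewer added ones, with means of 14.3 against 14.8 germline V bases, 30.8 against 32.1 germline J bases and 3.56 against 4.21 added bases. In the sorted libraries 215 of the 252 long clonotypes had 48 bp and none had 60 bp or more.

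The question put to the shares was whether long CDR3s differ with genotype, tissue or sort. Among all CD8 clonotypes, long ones made up 8.21% and 7.56% in Themis+/+ LN, 7.30% and 6.89% in Themis-/- LN, 7.71% and 7.90% in Themis+/+ thymus and 6.49% and 6.50% in Themis-/- thymus. Every Themis-/- library was below every Themis+/+ library. The means were 6.79% ± 0.385 (SD, n = 4) and 7.84% ± 0.280 (SD, n = 4), a difference of -1.05 percentage points with p = 0.0556 in an exact two-sided permutation test of genotype labels within tissue. This is the smallest p that test can give, so the design cannot pass 0.05 here, and the Benjamini-Hochberg value over 16 tests was 0.127. The difference was -0.793 points in LN and -1.31 points in thymus, where 2 libraries against 2 cannot give an exact p below 0.333. Without clonotypes that use a TRDV segment it was -0.775 points (exact permutation p = 0.111).

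**Figure D1:**
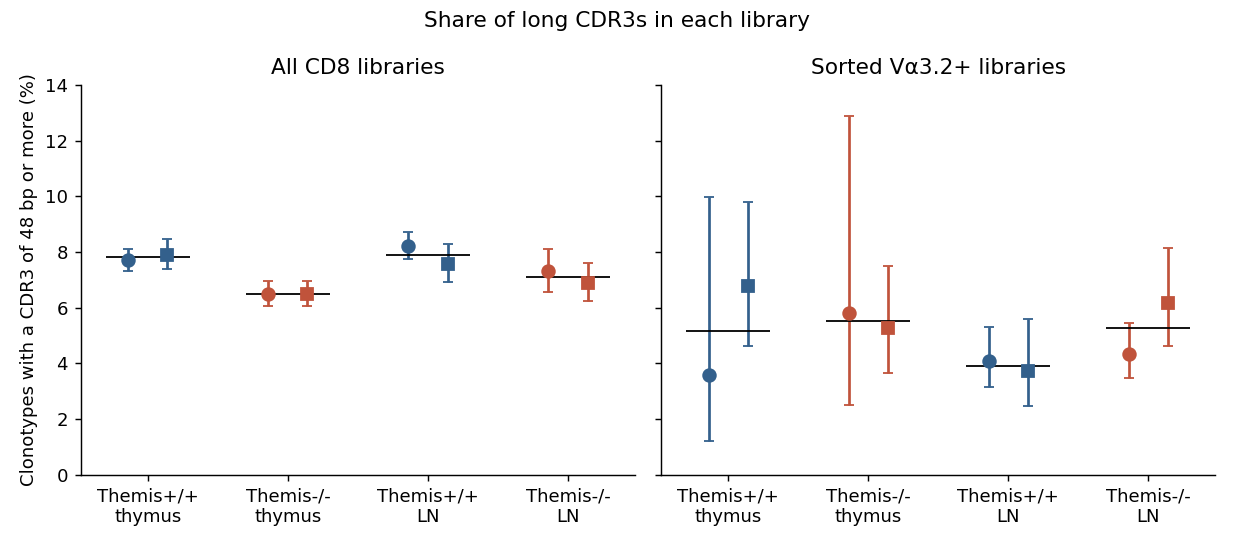
Share of clonotypes (%) with a CDR3 of 48 bp or more in each of the 16 libraries, by genotype and tissue, for all CD8 cells and for sorted Vα3.2+ cells; circles are replicate 1 and squares replicate 2, with 95% Wilson intervals for counting error, and lines are means of the 2. The all CD8 libraries sit between 6.49% and 8.21%, the Themis-/- ones below the Themis+/+ ones, while the sorted libraries sit between 3.57% and 6.78% with wide intervals in thymus.

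The clonotypes of the 2 genotypes also differed in what makes length, over clonotypes of every length. Mean CDR3 length was 40.4 ± 0.0903 bp in Themis-/- and 40.7 ± 0.0829 bp in Themis+/+ libraries (SD, n = 4 each), and the mean number of added bases was 2.66 ± 0.0688 and 2.89 ± 0.0566, each with an exact permutation p of 0.0556, again the smallest possible. Giving each clonotype the long share that its combination of germline V and J lengths had over all 8 libraries predicted 7.01% long clonotypes in Themis-/- and 7.47% in Themis+/+, a difference of -0.457 points (exact permutation p = 0.222). Germline lengths and added bases are parts of the length itself, so these values describe the difference in long CDR3s and are not independent of it.

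Weighted by reads, long CDR3s made up 7.65% and 7.25% in Themis+/+ LN, 6.84% and 8.17% in Themis-/- LN, 7.67% and 7.54% in Themis+/+ thymus and 5.83% and 6.05% in Themis-/- thymus. The genotypes overlapped because Themis-/- LN replicate 2 was the highest of the 8, and the difference of -0.807 points had an exact permutation p of 0.222. The clone of 354 reads printed above alone made up 0.438% of that library. LN and thymus did not differ beyond the spread, with 7.49% ± 0.555 against 7.15% ± 0.761 of clonotypes (SD, n = 4, difference 0.341, exact permutation p = 0.167) and a difference of 0.701 points by reads (exact permutation p = 0.278).

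Sorted Vα3.2+ cells had fewer long clonotypes. The shares were 4.10% and 3.73% in Themis+/+ LN, 4.35% and 6.16% in Themis-/- LN, 3.57% and 6.78% in Themis+/+ thymus and 5.81% and 5.25% in Themis-/- thymus. They averaged 4.97% ± 1.20 against 7.32% ± 0.643 in all CD8 libraries (SD, n = 8 each), and the difference of -2.35 points had p = 0.00154 in an exact permutation test of the sort labels within genotype and tissue, the smallest it can give (Benjamini-Hochberg 0.0123). By reads the difference was -2.54 points with the same p. Most sorted clonotypes used TRAV9-3, which brings 13 germline V bases, and V bases are part of the length. The test is therefore not independent of the V segment that the sort selects. In all CD8 cells 3.64% of the clonotypes from segments that bring 13 bases were long. The 2 sets overlapped at the edge, since Themis+/+ thymus replicate 2 of the sorted libraries, with 25 long clonotypes, lay above the lowest all CD8 libraries. Counts were small in sorted thymus, with 3 and 5 long clonotypes in the replicate 1 libraries, whose 95% Wilson intervals ran from 1.22% to 9.98% and from 2.51% to 12.9%. The genotype difference was 1.9 points more positive in sorted than in all CD8 libraries, a difference of differences with an exact permutation p of 0.0463 that did not pass correction over 18 such tests (Benjamini-Hochberg 0.444).

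Long CDR3s of all CD8 cells were built from longer germline segments, trimmed less, with more bases added. Because these parts sum to the length that defines the class, they are given without a test. The V segment brought 14.9 ± 0.144 germline bases against 13.7 ± 0.0328 in the 36 to 45 bp class, and the J segment 32.3 ± 0.130 against 29.0 ± 0.0907 (SD, n = 8 libraries). Trimming removed 1.07 ± 0.105 bases from V and 1.96 ± 0.101 from J, against 2.06 ± 0.0576 and 2.69 ± 0.0828. Added bases averaged 4.65 ± 0.377 against 2.70 ± 0.113. No bases were added in 3.63% ± 1.13 of long clonotypes and in 14.5% ± 1.24 of the others. The J segments thus held the largest part of the gap, and germline V bases, trimming and additions each differed by between 1 and 2 bases.

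**Figure D2:**
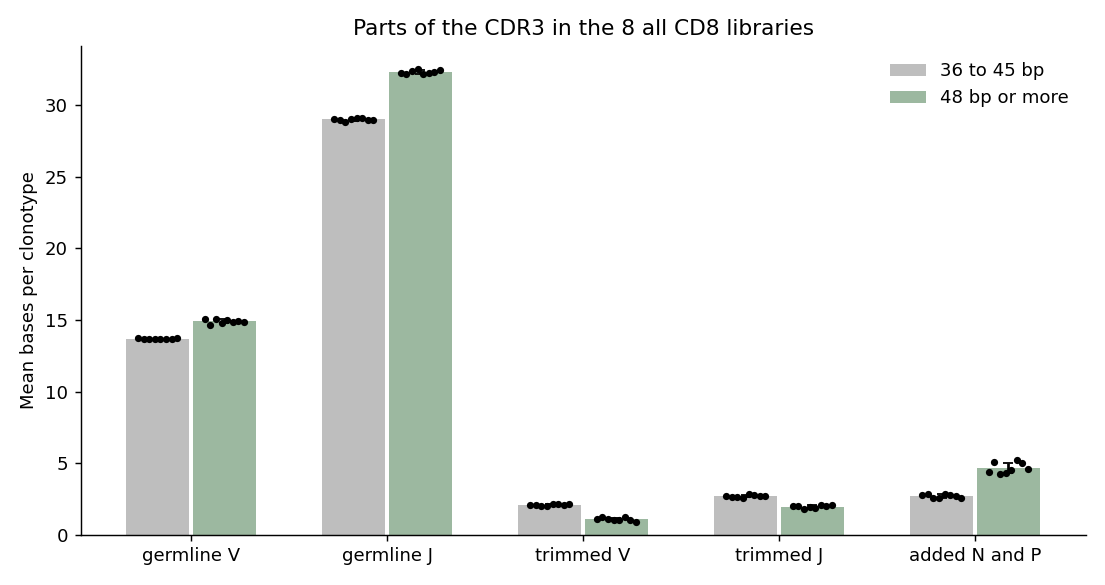
Mean bases per clonotype in each part of the CDR3 for long (48 bp or more) and 36 to 45 bp clonotypes; bars are means over the 8 all CD8 libraries, error bars are SD and points are libraries. Long clonotypes had more germline V and J bases (14.9 and 32.3) and more added bases (4.65), and fewer trimmed bases at both ends.

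The share of long CDR3s climbed with germline length. Among clonotypes whose V and J germline bases summed to at most 40, 20 of 18060 (0.111%) were long, against 13.7% at a sum of 45 to 46, 25.7% at 47 to 48 and 50.1% at 49 or more. Of the long clonotypes, 51.5% had segments that sum to at least 48 bases before trimming, between 44.8% and 55.8% in a library, and 12.2% lost no germline base at either end. It climbed with added bases too, with 1.71% of clonotypes long at 0 added bases, 8.79% at 3 to 5 and 37.2% at 9 or more. Long clonotypes with 9 or more added bases were 6.82% of the class.

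Within the long class the genotypes did not differ beyond the spread in additions or trimming. Added bases averaged 4.52 ± 0.358 in Themis-/- and 4.79 ± 0.396 in Themis+/+ (SD, n = 4 each), a difference of -0.267 bases with an exact permutation p of 0.278. The difference between LN and thymus was -0.321 bases (exact permutation p = 0.222), and trimmed bases differed by -0.178 between Themis-/- and Themis+/+ (exact permutation p = 0.167). The means of added bases count 6 sequences of the Themis-/- thymus libraries, described below, with 68 to 75 added bases that are mostly TRAJ18. Differences in added bases without these sequences were not computed. In LN the Themis-/- libraries, at 4.21 and 4.29 added bases, lay below the Themis+/+ ones, at 4.40 and 5.06, whereas in thymus the genotypes overlapped.

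V segment use in long CDR3s was led by TRAV16. The D and N copies of a V segment, duplicates that often cannot be told apart, were joined under one name, and clonotypes per segment were compared between classes within each library with edgeR. Of 50 V segments tested, 11 (22%) were more frequent among long clonotypes and 23 (46%) less frequent at a Benjamini-Hochberg adjusted p under 0.05. The germline bases of a V segment are part of the length that defines the class. The calls and their p-values therefore describe the class and are not independent of its definition. TRAV16 made up 20.9% ± 0.889 of long clonotypes and 5.14% ± 0.561 of the others (SD, n = 8), with 20% to 22.5% in every library (log2 fold change 2.15, SE 0.0814, edgeR adjusted p 8.18e-84). TRAV15-1, TRAV15-2, TRAV21, TRDV2-1 and TRDV2-2 were the others of the 6 most certain increases, with log2 fold changes of 4.02, 2.73, 2.15, 3.86 and 3.37. TRAV15-1 rose from 0.202% to 3.23% of clonotypes and TRAV21 from 0.671% to 2.74%. The annotation names TRAV15-1, TRAV15-2, TRAV21 and a copy of TRAV16 also as DV segments, which means that they can serve both the α and the δ chain.

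The 11 V segments that were higher bring 14 to 19 germline bases (median 17), and the 23 that were lower bring 12 to 14 (median 13). TRAV3-3 (4.59% of long against 7.94%), TRAV14-1 (1.65% against 4.14%), TRAV7-3 (0.536% against 2.39%), TRAV8-1 (0.237% against 1.85%), TRAV8-2 (0.666% against 2.26%) and TRAV13-2 (0.577% against 2.20%) were the 6 most certain decreases, with log2 fold changes from -0.74 to -2.63. Read as a share of each segment's own clonotypes, 57.1% of TRDV2-1, 55.2% of TRAV15-1, 45.9% of TRDV2-2, 36.7% of TRAV15-2, 25.5% of TRAV16 and 24.8% of TRAV21 clonotypes were long, against 3.64% of the clonotypes from the 30 segments that bring 13 bases. TRAV9-3, which joins TRAV9N-3 and TRAV9D-3, brings 13 bases. It made up 0.635% of long clonotypes against 1.81% of the others (log2 fold change -1.31, edgeR adjusted p 0.00307). The authors describe the antibody of the Vα3.2 sort as binding only TRAV9N-3 chains, so the joined name is wider than the sorted segment.

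**Figure D3:**
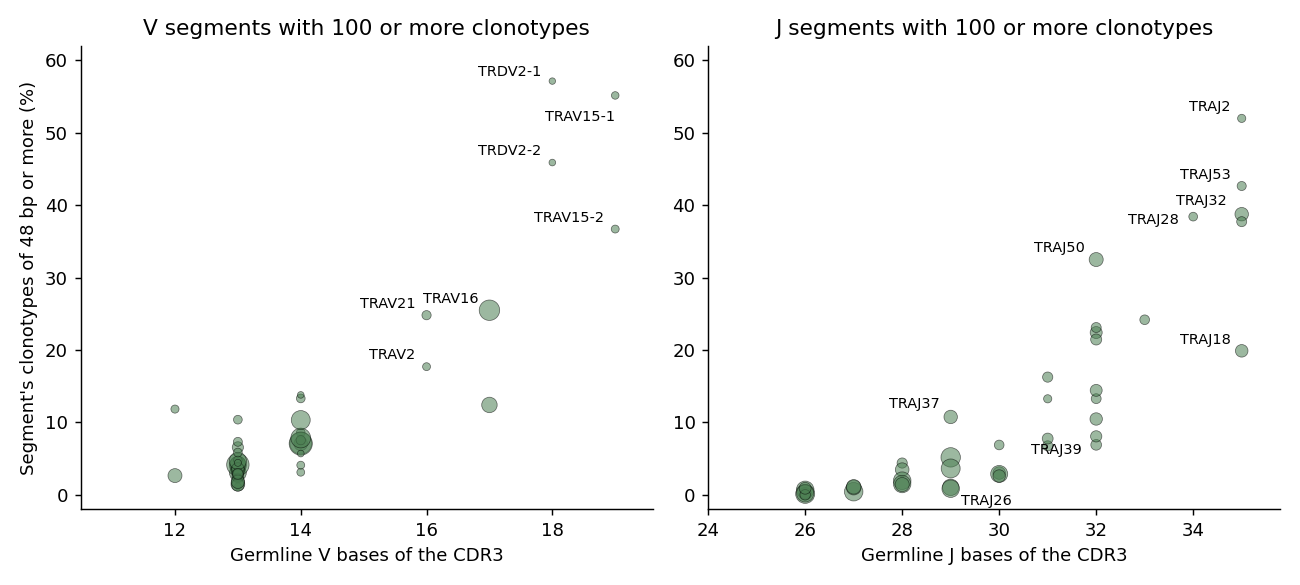
Share of a segment's clonotypes that were long (%) against the number of germline bases it brings to the CDR3, for V (left) and J segments (right) with at least 100 clonotypes over the 8 all CD8 libraries; circle area grows with the number of clonotypes. The share climbs with germline length on both sides, and at 35 germline J bases TRAJ18 (19.9%) lies well below TRAJ2 (51.99%).

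J segment use shifted further. Of 43 J segments tested with edgeR, 14 (32.6%) were more frequent among long clonotypes and 21 (48.8%) less frequent. Germline J bases are also part of the length that defines the class, so these calls and p-values are not independent of its definition. TRAJ32 (12.7% ± 2.31 of long against 1.66% ± 0.206 of the others, SD, n = 8) and TRAJ50 (11.5% ± 2.40 against 1.99% ± 0.370) led the class, with log2 fold changes of 2.77 and 2.37 (edgeR adjusted p 4.97e-09 and 1.06e-08). TRAJ2, TRAJ28, TRAJ52 and TRAJ53 followed with log2 fold changes of 3.64, 2.70, 2.64 and 2.96. The higher J segments bring 31 to 35 germline bases and the lower ones 26 to 30. TRAJ12, TRAJ26, TRAJ15, TRAJ9, TRAJ21 and TRAJ34 each fell below 0.6% of long clonotypes, with log2 fold changes from -2.83 to -4.38. TRAJ43, chosen for mention after its values were seen, was in 0 of 5778 long clonotypes, which allows a share of up to 0.0519%, and made up 1.08% of the others.

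Germline length did not order the J segments completely. TRAJ50 brings 32 bases and 32.5% of its clonotypes were long, more than the 19.9% of TRAJ18, which brings 35. Over all 9 segments that bring 32 bases the share ran from 6.90% to 32.5%. Grouped by number, TRAJ48 to TRAJ61, the end of the J cluster nearest the V segments, made up 35.1% ± 6.33 of long clonotypes and 13.7% ± 3.67 of the others (SD, n = 8), TRAJ21 to TRAJ28 13.6% against 24.3%, and TRAJ11 to TRAJ18 10.8% against 18.4%. These groups hold segments of unequal length, and the part of position was not tested.

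V and J segments combined widely. The 5778 long clonotypes fell into 790 V and J pairs, 191 of them with 1 clonotype, and the 10 most used pairs held 14.6%. TRAV16 to TRAJ50 was first with 133 clonotypes in all 8 libraries, and 73.9% of the clonotypes of this pair were long. TRAV12-3 to TRAJ32, the pair of 2 sequences printed above, followed with 112 clonotypes. TRAV16 was in 8 of the 10 most used pairs, and with TRAJ32 and TRAJ53 it made long CDR3s in 91.4% and 84.7% of clonotypes.

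The segments of the known invariant chains were looked up without a claim on the cells. TRAJ18, used with TRAV11 by invariant NKT cells, was higher in long clonotypes at 5.78% against 1.77% (log2 fold change 1.499, edgeR adjusted p 6.77e-06), whereas TRAV11 itself did not pass (0.850% against 0.549%, edgeR adjusted p 0.151). TRAJ33, used with TRAV1 by mucosal-associated invariant T cells, was in 6 of 5778 long clonotypes and was lower there, at 0.0797% against 3.79% (log2 fold change -5.28, edgeR adjusted p 2.91e-08), whereas TRAV1 did not pass (0.818% against 0.637%, edgeR adjusted p 0.318). TRAJ18 brings 35 germline bases and TRAJ33 26, and these are part of the length that defines the class. The shares are of segments and not of the invariant chains.

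In the annotation of GRCm38 all these segments lie on the plus strand of chromosome 14. TRAV16 is annotated as a V gene segment at 53743104 to 53743705, with its N copy at 53351028 to 53351621 and its D copy at 53047287 to 53047821. TRAV15-1 lies at 53559632 to 53560247, TRDV1 at 53881612 to 53882217, TRDV2-1 at 53946073 to 53946660 and TRDV2-2 at 53960944 to 53961602, between the TRAV and TRAJ segments. Of the J gene segments TRAJ50 lies at 54167590 to 54167652, TRAJ32 at 54186101 to 54186166, TRAJ18 at 54200777 to 54200842, TRAJ17 at 54201775 to 54201837 and TRAJ2 at 54217836 to 54217901.

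Genotypes were then compared within the long class. Of 29 V segments tested with edgeR over the 8 all CD8 libraries, 1 (3.45%) was higher and 2 (6.9%) were lower in Themis-/-. TRDV2-1 made up 1.74% and 2.07% of long clonotypes in Themis+/+ LN, 1.17% and 2.68% in Themis+/+ thymus, 0% and 0.268% in Themis-/- LN and 0.377% and 0.253% in Themis-/- thymus. The genotypes did not overlap, with 62 long TRDV2-1 clonotypes in Themis+/+ and 6 in Themis-/- (log2 fold change -2.84, SE 0.803, edgeR adjusted p 0.0161). In Themis-/- LN replicate 1, 0 of 318 long clonotypes used it, which allows a share of up to 0.943%, and the same holds for TRDV1. In replicate 2, 0 of 373 used TRDV1, which allows up to 0.804%. TRDV1 made up 1.06%, 1.84%, 0.778% and 2.54% of long clonotypes in Themis+/+ (LN, then thymus) and 0%, 0%, 0.754% and 0.253% in Themis-/- (log2 fold change -2.30, SE 0.791, edgeR adjusted p 0.0404). TRDV2-2, with 58 long clonotypes in Themis+/+ and 9 in Themis-/-, had a log2 fold change of -2.03 and an edgeR adjusted p of 0.0541.

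Over all TRDV segments, a grouping made after their values were seen, TRDV made up 4.83%, 5.29%, 3.35% and 7.23% of long clonotypes in the Themis+/+ libraries (LN, then thymus) and 0%, 1.34%, 1.63% and 0.760% in the Themis-/- libraries. The means were 5.17% ± 1.60 and 0.934% ± 0.720 (SD, n = 4), without overlap, and the exact permutation p of 0.0556 is the smallest this design gives. By reads the means were 5.05% and 0.647%. In the 36 to 45 bp class TRDV made up 1.17% ± 0.458 in Themis+/+ and 0.620% ± 0.360 in Themis-/-, which overlapped (exact permutation p = 0.222). TRDV2-1 was also lower among 36 to 45 bp clonotypes, at 0.0341% against 0.106% without overlap, and TRDV1 overlapped there. Fewer cells that use a segment and less of its transcript per cell cannot be told apart in these libraries.

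**Figure D4:**
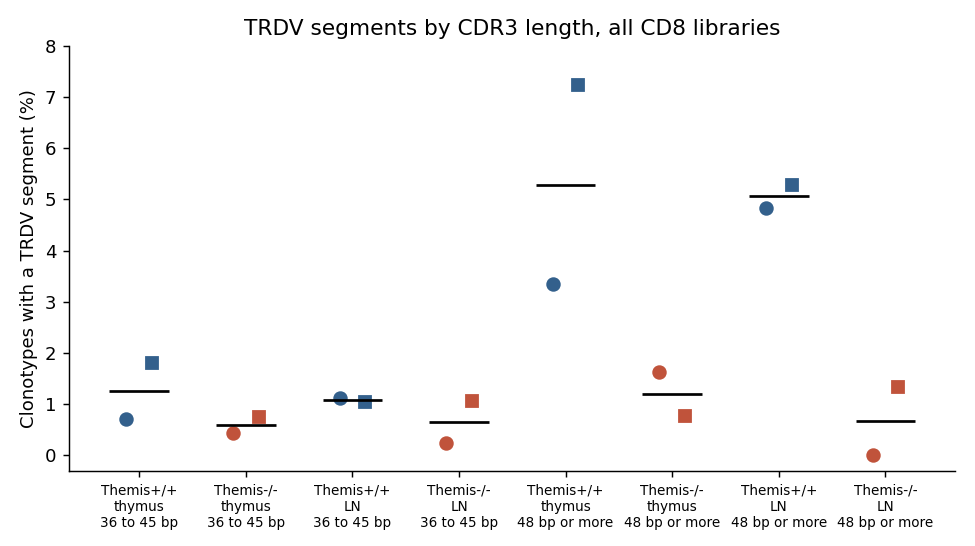
Share of clonotypes with a TRDV segment (%) among long and 36 to 45 bp clonotypes in each all CD8 library. In the long class the 4 Themis+/+ libraries sit between 3.35% and 7.23% and the 4 Themis-/- libraries between 0% and 1.63%; in the 36 to 45 bp class no library exceeds 1.797%.

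TRAV12-3 was the V segment that was higher in Themis-/-, with 6.47% and 8.05% of long clonotypes in Themis+/+ LN, 6.30% and 5.49% in Themis+/+ thymus, 9.12% and 11.5% in Themis-/- LN and 8.79% and 9.13% in Themis-/- thymus. The lowest Themis-/- library lay above the highest Themis+/+ one (log2 fold change 0.55, SE 0.175, edgeR adjusted p 0.0308). In the 36 to 45 bp class it made up 7.34% ± 0.770 and 6.63% ± 1.01 (SD, n = 4), with overlap. These 3 calls rested on few clonotypes and on how they were counted. With the replicate number as a block, with reads in place of clonotypes, or without Themis-/- LN replicate 2, 0 V segments passed, and TRAV12-3 had a log2 fold change of -0.96 when a V copy was taken as first listed instead of joined. DESeq2 called 3 V segments, all lower in Themis-/-, and gave TRAV12-3 an adjusted p of 0.0629. Without a filter on low counts TRDV1 had an edgeR adjusted p of 0.135.

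No J segment (0% of 29) passed between genotypes within the long class in edgeR. At an unadjusted p under 0.05 there were 7, and DESeq2 called 4, all higher in Themis-/-. TRAJ4 (5.19% in Themis-/- against 2.03%), TRAJ18 (7.37% against 4.19%), TRAJ53 (2.79% against 5.65%) and TRAJ49 (0.173% against 1.28%) came closest, with edgeR adjusted p of 0.0622 to 0.0628. Between LN and thymus no V segment (0% of 29) and no J segment (0% of 29) passed in edgeR. Unadjusted p under 0.05 were 1 and 2, and DESeq2 called 0 V segments and 1 J segment.

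The residues in the middle of long CDR3s differed from those of 36 to 45 bp. The first 4 and last 4 residues were left out, and each clonotype counted equally. The middle still holds germline J bases, since the J part averaged 30.4 bases in long CDR3s and 26.3 in the others. These bases are part of the length that defines the class. The residue calls and their p-values are therefore not independent of its definition. Of 20 residues 10 (50%) were more frequent in long CDR3s and 6 (30%) less frequent, by an exact sign-flip permutation test over 8 libraries with Benjamini-Hochberg adjustment (0.0120 for 13 of them, 0.0208 to 0.0293 for K, R and D). Asparagine made up 11.1% ± 0.441 of middle residues against 17.4% ± 0.539, tyrosine 3.83% ± 0.174 against 9.65% ± 0.350, and both were lower in 8 of 8 libraries. Serine made up 17.6% ± 1.06 against 13.0% ± 0.491, higher in 8 of 8. Glycine (22.8% against 20.1%), leucine (4.32% against 1.65%), glutamate (5.22% against 3.01%), phenylalanine, isoleucine, valine, proline, lysine and arginine were also higher, and glutamine, threonine, tryptophan and aspartate lower. With a window that leaves out the first 3 and last 5 residues, 12 residues passed in place of 16. Serine was then higher by 1.03 points (adjusted exact permutation p = 0.204), and tyrosine was lower by a difference of -2.97 points in place of -5.82 (adjusted exact permutation p = 0.0142).

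Mean Kyte-Doolittle hydropathicity, in which higher values are more hydrophobic, was -0.836 ± 0.0755 per middle residue in long CDR3s and -1.27 ± 0.0251 in those of 36 to 45 bp. The difference of 0.438 was positive in 8 of 8 libraries (exact sign-flip permutation p = 0.0078, the smallest possible, Benjamini-Hochberg 0.025), and it was 0.279 in the window without the first 3 and last 5 residues, with the same p. A longer middle reaches further into the J segment, and the J segments differed between classes, so these values describe the 2 sets of sequences, and the part of J use was not tested. Long CDR3s of the genotypes did not differ beyond the spread, at -0.800 ± 0.0915 in Themis-/- and -0.873 ± 0.0373 in Themis+/+ (SD, n = 4, exact permutation p = 0.222). In the sorted libraries glycine and leucine were higher in long CDR3s and asparagine, tryptophan and tyrosine lower (adjusted exact permutation p = 0.0313 for each).

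Clones with long CDR3s were of about the size of the others. A long clonotype of all CD8 cells held on average 7.46 to 17.7 reads, depending on the library, and one of 36 to 45 bp 7.53 to 15.7. The log2 ratio of the means was negative in 7 of 8 libraries and 0.26 in Themis-/- LN replicate 2, with a mean of -0.05 (exact sign-flip permutation p = 0.289). Without that library the mean was -0.10 with an exact permutation p of 0.0156, the smallest that 7 libraries give. In the sorted libraries the mean log2 ratio was -0.13 (exact permutation p = 0.203). The largest single long clone took 0.111% to 0.438% of the reads of an all CD8 library, and the largest clone of 36 to 45 bp 0.386% to 1.22%. A maximum grows with the number of clonotypes, and the 36 to 45 bp class held far more, so these maxima are not compared. The share of clonotypes seen in 1 read was 13.1% to 21.8% among long ones and 14.8% to 20.998% among the others. Mean base quality was 33.1 ± 0.423 and 33.2 ± 0.261 (SD, n = 8).

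Long CDR3s were shared less between libraries. In an all CD8 library 4.98% to 8.81% of long clonotypes had their nucleotide sequence in at least 1 other all CD8 library, against 17.96% to 23.0% of those of 36 to 45 bp. The means were 6.75% ± 1.61 and 19.98% ± 1.67 (SD, n = 8), and the difference of -13.2 points was negative in 8 of 8 libraries (exact sign-flip permutation p = 0.0078, Benjamini-Hochberg 0.025). Of 5567 distinct long sequences 157 (2.82%) were in 2 or more libraries and none in more than 5, whereas 5326 of 59591 (8.94%) of 36 to 45 bp were in 2 or more and some in all 8. Any 2 libraries had 2 to 26 long sequences in common. Sequences seen in 1 read of a library and in at least 50 of the other, which reads misplaced between samples could give, were 7 of 281 shared pairs (2.49%) in the long class and 129 of 11545 (1.12%) in the other.

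Added bases moved with sharing in both classes, and the gap was seen within most levels of them. With 0 added bases 37.9% ± 3.63 of long clonotypes were shared against 51.01% ± 2.95 of the others (SD, n = 8), with 1 to 2 added bases 14.6% against 23.3%, and with 3 to 5 added bases 5.25% against 10.1%. Each gap was negative in 8 of 8 libraries (exact sign-flip permutation p = 0.0078, Benjamini-Hochberg 0.0104). With 6 or more added bases 1.17% and 1.48% were shared, which did not differ beyond the spread (exact permutation p = 0.398). With equal additions a long sequence keeps more germline V and J bases, and the part of segment use and trimming in the gap was not tested.

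**Figure D5:**
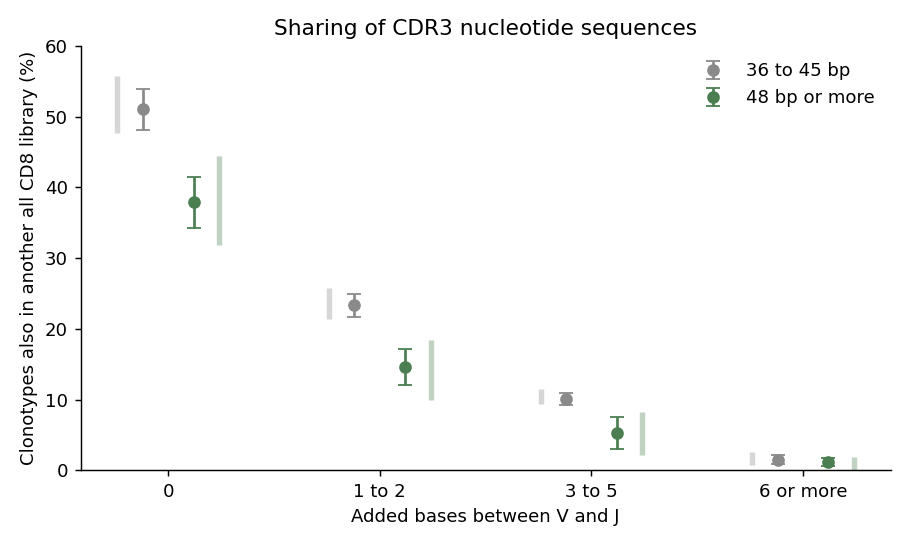
Share of clonotypes (%) whose CDR3 nucleotide sequence was found in at least 1 other all CD8 library, by the number of added bases, for long and 36 to 45 bp clonotypes; points are means over 8 libraries, error bars are SD and the pale bars span the lowest and highest library. Long clonotypes lie below at 0, 1 to 2 and 3 to 5 added bases, and both classes lie near 1% at 6 or more.

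In the long class Themis-/- libraries shared 8.81% and 8.58% of LN clonotypes and 5.40% and 8.24% of thymic ones, and Themis+/+ libraries 6.96% and 5.98% of LN and 4.98% and 5.09% of thymic ones. Within each tissue the Themis-/- libraries were the higher ones, but 2 libraries against 2 cannot give an exact p below 0.333, and Themis-/- libraries held fewer clonotypes in LN. Sorted libraries showed a gap in the same direction, with 16.4% ± 11.3 of long clonotypes and 35.7% ± 5.72 of the others found in another sorted library (difference -19.3 points, negative in 8 of 8, exact permutation p = 0.0078). Each library counted equally, including the thymus libraries of replicate 1 with 3 (Themis+/+) and 5 (Themis-/-) long clonotypes. In these 33.3% and 0% of long clonotypes were shared, with differences of -8.77 and -43.4 points. The number of nucleotide sequences per amino acid sequence was 1.19 ± 0.0320 for long CDR3s and 1.25 ± 0.0359 for the others (difference -0.0609, exact permutation p = 0.0156). This measure grows with the number of clonotypes, and with equal numbers drawn in each library, an alternative chosen after seeing the data, the difference was 0.168 (exact permutation p = 0.0078), so no direction is drawn.

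In the sorted libraries TRAV9-3 made up 78.6% of the 252 long clonotypes and 87.1% of those of 36 to 45 bp, all libraries together, and TRAV9-4, a relative of the same family, 17.5% and 10.4%. Long clonotypes had 13.1 germline V bases against 13.0, with 0.721 ± 0.218 against 1.55 ± 0.209 trimmed from V, and 33.2 ± 0.360 germline J bases against 28.9 ± 0.184 (SD, n = 8). TRAJ2 stood first, with 72 of 252 long clonotypes (28.6%, 49 distinct sequences) and 0.936% of the others. It made up 20% to 66.7% of long clonotypes in every sorted library, with the extremes in the libraries of 5 and 3 long clonotypes, and 22.2% to 36.4% in the other 6. The leading Themis-/- LN clone of the sort printed above is one of these. Among TRAV9-3 clonotypes alone, 4.29% were long in the sorted libraries and 2.89% in the libraries of all CD8 cells, all libraries together and without a test. By library the share ran from 2.63% to 7.47% in the sort and from 0.637% to 7.25% in all CD8 cells. The all CD8 libraries held only 1 to 10 long TRAV9-3 clonotypes each. The ranges overlapped, so no direction is drawn within this segment.

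The longest CDR3s were rare and of unusual makeup. All 26 clonotypes of 60 bp or more came from libraries of all CD8 cells, 23 from thymus and 3 from LN. They had 1 to 20 reads each. The libraries of all CD8 cells held 5778 of the 6030 long clonotypes, 747 to 1285 in a thymus library and 318 to 1035 in an LN one. In 9 of the 26 the added bases held 12 or more bases of another J segment. In another 9 they held at least 8 bases of the δ segment Trdd2, and in 8 they held neither. Over the whole long class a second J stretch was in 12 of 5778 clonotypes (0.208%) and a Trdd2 stretch in 16 (0.277%), against 4 and 10 of 67316 clonotypes of 36 to 45 bp (0.00594% and 0.0149%). Long CDR3s offer more added bases to search, so these shares are a description. Of the long TRDV clonotypes 9 of 194 (4.64%) held a Trdd2 stretch.

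The longest CDR3 as listed and the Trdd2 example with the most reads are printed because the stretches can be read in them. The TRAJ18 and the Trdd2 bases are in capitals. In the longest, the TRAJ18 stretch includes the bases at which the TRAV16 to TRAJ18 CDR3 printed above closes. Its listed length runs on to the end of the TRAJ17 part.
TRAV7-2 to TRAJ17, 120 bp: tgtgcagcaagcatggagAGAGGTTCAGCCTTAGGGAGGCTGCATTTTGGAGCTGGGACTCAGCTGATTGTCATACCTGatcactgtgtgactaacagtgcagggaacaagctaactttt
TRDV5 to TRAJ52, 57 bp: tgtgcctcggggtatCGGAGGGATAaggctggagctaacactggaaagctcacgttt
The 120 bp sequence had 18 reads in Themis-/- thymus replicate 1, and the 57 bp sequence 40 reads in Themis-/- LN replicate 2. In the former 61 bases of TRAJ18 run to the end of its exon, 9 bases follow, and then TRAJ17 starts untrimmed. The same order was found in 6 sequences of 111 to 120 bp, with 4 V segments and 58 to 64 of the 66 bases of the TRAJ18 exon, and the 9 bases between TRAJ18 and TRAJ17 were ATCACTGTG in all 6. As background, CACTGTG is the form that the heptamer of a recombination signal takes in front of a J segment.

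These 6 sequences were found in both Themis-/- thymus libraries of all CD8 cells and nowhere else. Replicate 1 held 4 of them with 32 reads (0.0219% of the library) and replicate 2 held 2 with 5 reads (0.00432%). The other 14 libraries had 0 reads, which allows up to 0.00305% in the Themis+/+ thymus libraries of all CD8 cells, up to 0.00522% in the LN ones and up to 0.0290% in the sorted ones. The pattern was noticed in these data, the value of replicate 2 is below the limit in 2 LN libraries, and the genotypes were not tested on it.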

How the data were processed

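TCRα transcripts were sequenced in 16 libraries. The authors amplified template-switched cDNA by PCR from a constant-region primer and extracted clonotypes with MiXCR, of which no version is given in the sources used here. CASAVA 1.4 and the build mm9 are named in the submitters' processing notes. The deposited files list, per library, each CDR3 with its raw read count, its fraction of the library's reads, equal to count over total, and a base-quality score.

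Each CDR3 was matched by segment name from both ends to germline segments of GENCODE M21 on GRCm38 (match 1, mismatch -3). Bases between the 2 matched stretches are called added. Coordinates are from that annotation, not mm9. Germline J lengths differed from the files' own reference points in 4 of 44 J names. D and N copies were joined, from 117 listed V names to 55. Replicate numbers were not taken as pairs. Library values were compared with exact two-sided permutation tests, and clonotypes per segment by edgeR 4.0.16 (quasi-likelihood, TMM, at least 10 clonotypes in at least 2 columns), which was checked on simulated data. DESeq2 1.42.0, no filter, reads, other limits, thinning to 57455 or 10338 reads (20 draws) and leaving out each library were alternatives. Adjusted p are Benjamini-Hochberg values, with a threshold of 0.05. A count of 0 allows up to 3. R 4.3.3, Python 3.11.15, pandas 2.3.3 and scipy 1.17.1 were used.

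Members, lists and tests were chosen with earlier results of these data known. The segments named are the 6 higher and 6 lower with the smallest adjusted p and at least 10 long clonotypes, TRAV9-3 and those of invariant chains. The sequences are the 3 most shared long ones, the top one of each group, the longest and the most shared one of 36 to 45 bp. Any other was picked once its values had been seen.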

Additional observations from a re-analysis of the deposited data

Results flagged for a closer look

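Among 28 sets of 4 or 8 libraries looked at, 4 held a library that stood far from the rest, where chance gives about 1 set in 20. Groups of 2 libraries were not tested this way. The log2 ratio of mean reads per long clonotype to that of 36 to 45 bp was 0.26 in Themis-/- LN replicate 2 of all CD8 cells, against -0.18 to -0.01 in the other 7 libraries, and the long clone of 354 reads lies in this library. The hydropathicity of long CDR3s exceeded that of 36 to 45 bp by 0.562 in Themis-/- LN replicate 1 of all CD8 cells, against 0.381 to 0.453 in the other 7. The same difference was 1.19 in Themis-/- thymus replicate 1 of the sorted cells, which held 5 long clonotypes, against 0.498 to 0.756. Long clonotypes made up 6.78% of Themis+/+ thymus replicate 2 of the sorted cells, against 3.57% to 4.10% in the other 3 sorted Themis+/+ libraries.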

How the results depend on the processing

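Of 324 alternative values for the main comparisons 303 kept their direction and their side of the threshold, 15 counts of segments moved by over 1.5 times, 5 values turned and 1 came to pass it. With a limit of 51 bp the difference between LN and thymus was -0.0648 points by clonotypes and -0.134 by reads, and that of Themis-/- from Themis+/+ was 0.0352 added and 0.0111 trimmed bases. Sequences per amino acid sequence differed by 0.168 with equal numbers of clonotypes. By reads, 22 V segments were called between the classes. For V segments between genotypes, 0 were called in a replicate block (5 unadjusted), 0 by reads and 0 at 51 bp, and leaving out 1 library gave 0 to 5, with 0 without Themis-/- LN replicate 2, 1 without replicate 2 of either thymus and 5 without Themis+/+ thymus replicate 1. For J segments between genotypes DESeq2 called 4, no filter 3, and leaving out 1 library 0 to 5, with 5 without Themis+/+ thymus replicate 1 and 1 without Themis+/+ LN replicate 2. Between tissues, DESeq2 called 1 J segment, and leaving out 1 library gave 0 to 1 V and 0 to 1 J segments, with 1 V without Themis+/+ LN replicate 2 and 1 J without Themis+/+ thymus replicate 2. The log2 ratio of clone size ran from -0.100 to -0.0374 without 1 library and passed the threshold without Themis-/- LN replicate 2. TRAV12-3 was at -0.96 between genotypes with the first listed hit. The cause of these changes was not tested. Of 467 values for single segments and residues 24 lost their call and 1 turned.

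With the replicate number as a block, the share of long clonotypes differed by -1.05 points between genotypes (exact permutation p = 0.125, the smallest possible) and by -2.35 between sort and all CD8 (exact p = 0.0078). Of the main results, the block changed only the V segments between genotypes, from 3 calls to 0. V use of same-numbered libraries deviated with correlations from -0.54 to 0.43 in all CD8 cells over 38 segments, and in the sorted cells, over 3 segments, above 0.99. Thinning to equal reads changed no call. Depth limits the sorted thymus, with 3 and 5 long clonotypes in replicate 1.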

Other observations

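Near copies of larger clones, differing by 1 base from a clonotype with at least 10 times the reads in the same library, were 2.81% to 5.63% of long clonotypes and 4.45% to 6.21% of those of 36 to 45 bp in the all CD8 libraries. TRAV11 and TRAV1, which did not pass between classes, differed between genotypes without overlap only at 36 to 45 bp, where TRAV11 made up 0.705% ± 0.0490 in Themis-/- and 0.392% ± 0.0374 in Themis+/+ and TRAV1 0.924% ± 0.228 and 0.350% ± 0.201 (SD, n = 4, exact permutation p = 0.0556 each, the smallest possible). In long clonotypes the same segments overlapped between genotypes, at 0.785% against 0.915% and 0.730% against 0.907%. Whether these differences themselves differ between the classes was not tested.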
